A study of Mus musculus with 32 samples.

Results

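The 36 genes described here are the hypoxia and glycolysis genes of the mouse E0771 mammary carcinoma line, chosen by gene symbol. All 36 symbols were found in each of the 4 deposited tables, which hold 27777 distinct symbols between them. A member entered a test where its mean normalized read count over the libraries of a table was 10 or more. In culture 33 members reached it, with Aldoc, Eno1 and Stc2 below and Car9 the lowest inside at a mean of 51.2. In tumours of Rag1-/- hosts 34 reached it, with Eno1 and Stc2 below and Car12 the lowest inside at 13.6. At day 4 and at day 6 all 36 reached it.

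The series measured RNA from E0771 cells that were wild type (WT) or knockout (KO) for Ddr1, the gene of the collagen receptor tyrosine kinase discoidin domain receptor 1, and its title places DDR1 in mammary tumour growth. The 32 libraries fall into 8 groups. Cultured WT cells gave 3 libraries (titled E0771-P, EV and Ctrl, called WT 1, WT 2 and WT 3 here) and cultured KO cells gave 2, from the derivatives titled 3-6 and 3-7 (KO 1 and KO 2). Tumours in Rag1-/- mice, which make no mature B or T lymphocytes, gave 5 WT and 5 KO libraries. Tumours moved from Rag1-/- mice into immune-competent C57BL/6 mice, titled D4 (called day 4 here, though the labels do not spell the abbreviation out), gave 4 WT and 5 KO libraries. C57BL/6 tumours titled Day6 gave 4 libraries under control IgG and 4 under an antibody to the extracellular domain of human DDR1 (hDDR1 ECD), with no Ddr1 genotype and no age, sex or dose in the labels used here. The labels do not say which KO derivative the tumours came from, nor that libraries of a group came from separate cultures or mice, so the p-values below measure the spread between these libraries, which may be technical.

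Cells that run short of oxygen stop hydroxylating the transcription factor HIF1A, because the prolyl hydroxylases encoded by the Egln genes need oxygen. The stabilised factor then drives glucose uptake, glycolysis, lactate export, removal of mitochondria and the release of factors that recruit blood vessels. Solid tumours outgrow their vessels and commonly show this programme, and many tumour cells also run glycolysis with oxygen present.

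HIF binds DNA at a short core, spelled ACGTG or GCGTG. RefSeq promoter windows (build GRCm38.p6, the 250 bases before a transcription start) were matched for 32 of the 36 members, which have 49 windows. Bnip3l, Bhlhe40, Slc2a3 and Ndrg1 had no entry. Searched on both strands, ACGTG was in 42.9% of the 49 windows and in 16.6% of all 32851 windows of that length. GCGTG was in 53.1% against 28.2%, and either was in 79.6% against 38.6%. The members' windows were also richer in G and C, with a median of 62.8% against 52.4%, and a match describes letters only. Windows of 1 gene can overlap and count the same match again. By gene, ACGTG was in 18 of the 32 members. Only 18 of the 49 windows are free of annotated exons. The members were chosen as hypoxia and glycolysis genes, so their higher share is no independent result. The 4 windows shown are free of annotated exons and belong to members on which results below turn. For Egln3, Mxi1 and Pgam1, limma's test called the KO difference unlike in the hosts. Ldha was called lower in KO tumours of Rag1-/- hosts. The calls of Pgam1 and Ldha did not hold in every alternative fit. Capitals mark both motifs on the printed strand. They also mark the reverse complement of the first, CACGT, and that of the second, CACGC. The palindrome CACGTG counts once on each strand.
Egln3 (chr12:54203875-54204124, minus strand): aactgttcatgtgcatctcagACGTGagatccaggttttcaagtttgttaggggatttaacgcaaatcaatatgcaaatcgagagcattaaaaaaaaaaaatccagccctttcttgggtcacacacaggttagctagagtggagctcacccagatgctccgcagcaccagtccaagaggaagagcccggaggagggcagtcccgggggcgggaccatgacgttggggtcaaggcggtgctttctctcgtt
Mxi1 (chr19:53329163-53329412, plus strand): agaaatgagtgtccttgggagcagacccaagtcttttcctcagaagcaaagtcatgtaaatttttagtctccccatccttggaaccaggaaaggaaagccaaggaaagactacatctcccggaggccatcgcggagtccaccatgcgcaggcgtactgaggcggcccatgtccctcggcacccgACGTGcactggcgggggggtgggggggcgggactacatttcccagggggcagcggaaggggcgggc
Pgam1 (chr19:41911621-41911870, plus strand): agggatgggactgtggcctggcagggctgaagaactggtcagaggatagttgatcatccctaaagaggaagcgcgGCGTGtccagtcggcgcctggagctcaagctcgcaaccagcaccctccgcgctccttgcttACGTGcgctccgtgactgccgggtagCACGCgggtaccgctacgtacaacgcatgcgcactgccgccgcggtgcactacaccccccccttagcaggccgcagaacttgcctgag
Ldha (chr7:46845554-46845803, plus strand): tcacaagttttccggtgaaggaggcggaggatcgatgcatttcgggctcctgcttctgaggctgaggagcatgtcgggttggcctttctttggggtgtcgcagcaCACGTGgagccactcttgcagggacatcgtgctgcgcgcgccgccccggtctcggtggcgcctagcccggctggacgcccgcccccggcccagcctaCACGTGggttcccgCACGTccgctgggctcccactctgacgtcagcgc
The Ldha window held 5 matches to ACGTG, 4 of them in its CACGTG pair, and the Pgam1 window held 1 ACGTG and 2 GCGTG. Egln3 and Mxi1 held 1 ACGTG each. Of the 3 Mxi1 and 2 Ldha windows, 1 each is printed. Another exon-free Mxi1 window (chr19:53310256-53310505) held 0 ACGTG and 0 GCGTG, and the remaining Mxi1 window, which overlaps an Mxi1 exon, held 1 ACGTG. The other Ldha window (chr7:46846832-46847081), also exon-free, held 0 ACGTG and 1 GCGTG. The printed windows therefore do not stand for every start of these genes.

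Depth was 18967300 to 39732635 reads per library. Ddr1 itself was at 171 to 213 reads per 1000000 reads of the library (RPM) in cultured WT and 19.0 to 26.7 in cultured KO cells, at 174 to 189 and 33.3 to 42.3 in Rag1-/- hosts, and at 132 to 175 and 27.9 to 49.7 at day 4. At day 6 it was at 15.9 to 28.5 RPM under either treatment. Of 7 mammary carcinoma markers, Vim, which mesenchymal cells also express, and Krt8 made up nearly all of a summed level of 3372 to 9092 RPM. The epithelial markers Krt18, Krt7, Epcam, Cldn4 and Cdh1 were near 0 in the cultured cells, where the highest was Epcam at 0.652 to 1.07 RPM in WT and 3.27 to 3.31 in KO cells. The labelled carcinoma was therefore not marked by them, and its share of a tumour cannot be read from this list. In bulk tumour RNA, fewer cells of a type and less RNA per cell cannot be told apart.

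Per length, the glycolytic enzymes led the set in all 8 groups. Ldha, the lactate dehydrogenase subunit that turns pyruvate into lactate, stood at 991 ± 78.4 RPM per kilobase of exon in cultured WT cells (SD, n = 3). Triosephosphate isomerase Tpi1 was at 599 ± 8.19 and aldolase Aldoa at 581 ± 50.6 on that scale, which do not differ beyond their spread. In day 4 WT tumours (n = 4) the order was Ldha at 960 ± 52.7, Aldoa at 880 ± 91.6, Tpi1 at 801 ± 58.3, the glucose transporter Slc2a1 (GLUT1) at 583 ± 46.3 and the vasodilator peptide gene Adm at 551 ± 65.1. Neighbours in that order overlapped in spread except Tpi1 and Slc2a1. In day 6 IgG tumours Aldoa led at 431 ± 124, within the spread of Ldha at 351 ± 66.9. Ldha, Tpi1 and Aldoa held the first 3 places in every group, in varying order.

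Levels across growth conditions come from tables that were normalized separately, so they are given as RPM, as a description with no test, and host, day and table cannot be told apart. Among the 33 members tested in all 4 tables, 24 were higher in every day 4 WT tumour than in every Rag1-/- WT tumour (19.6% of 10134 genes did so) and 2 were lower (42.8% of genes). The median log2 ratio of the members was 1.08, against −0.24 for those genes. The 24 include Pgk1, Aldoa, Ldha and Mxi1, whose levels are uncertain for a reason given below. Among KO tumours 15 members were higher at day 4 (15.0% of genes) and 5 were lower (40.3%), with a median of 0.57 against −0.24. Between cultured WT cells and Rag1-/- WT tumours the set did not move up: 3 members were higher in every tumour and 14 lower, where 31.3% and 31.4% of genes did so, with a median of −0.31. From day 4 WT to day 6 IgG tumours 30 members were lower in every tumour (14.9% of genes) and 1 was higher (25.6%), with a median of −1.39 against 0.13 for all genes. The day 6 labels give no Ddr1 genotype, and Ddr1 was at 15.9 to 22.1 RPM in day 6 IgG tumours against 132 to 175 in day 4 WT tumours, so treatment and Ddr1 level differ here as well.

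Carbonic anhydrase 9 (Car9), a cell surface enzyme that buffers acid, showed the higher level at day 4 plainly. Its rise from culture to Rag1-/- hosts was not shared by most of the set. Car9 was among the 3 members higher in every Rag1-/- WT tumour than in cultured WT cells, where 14 were lower. In RPM, Car9 stood as follows. It was at 1.09 to 2.44 RPM in cultured WT cells, 5.34 to 11.1 in Rag1-/- WT tumours, 88.6 to 110 in day 4 WT tumours and 2.74 to 10.2 in day 6 IgG tumours. No day 4 WT tumour came near a tumour of another table, and the day 4 WT mean was 11.4 times that in Rag1-/- WT tumours. Slc2a1 was at 345 to 618 RPM in Rag1-/- WT tumours and at 1866 to 2241 in day 4 WT tumours. Bnip3, which marks mitochondria for removal, was at 31.1 to 58.9 RPM and 259 to 304 RPM in those groups, and Adm at 66.3 to 155 and 768 to 1021. Pfkfb4, a regulator of fructose 2,6-bisphosphate, ran the other way, at 41.7 to 50.5 RPM in Rag1-/- WT and 25.2 to 31.6 in day 4 WT tumours. Hif1a was at 558 to 603 RPM in cultured WT cells, 373 to 462 in Rag1-/- WT and 222 to 447 in day 4 WT tumours, and those tumour groups overlap.

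For 6 members the level is uncertain, because near-identical copies exist (at least 90% identity over at least 50% of the mRNA in GENCODE): Gapdh with 156, Ldha with 7, Eno1 with 6, Aldoa with 5, Pgk1 with 2 and Mxi1 with 1. Gapdh, among the most abundant glycolytic mRNAs of most cells, was listed at only 2.16 to 17.8 RPM in all 32 libraries. Eno1 was at 0 to 0.0527 RPM in the culture and Rag1-/- tables and at 718 to 1192 RPM at day 4. Pgk1 was at 45.5 to 65.0 RPM in Rag1-/- tumours and 360.5 to 643 at day 4. These steps fall between tables of 22609 genes and tables of 25277 genes, and how each table treated reads of copies is not given in the sources used here.

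**Figure D1:**
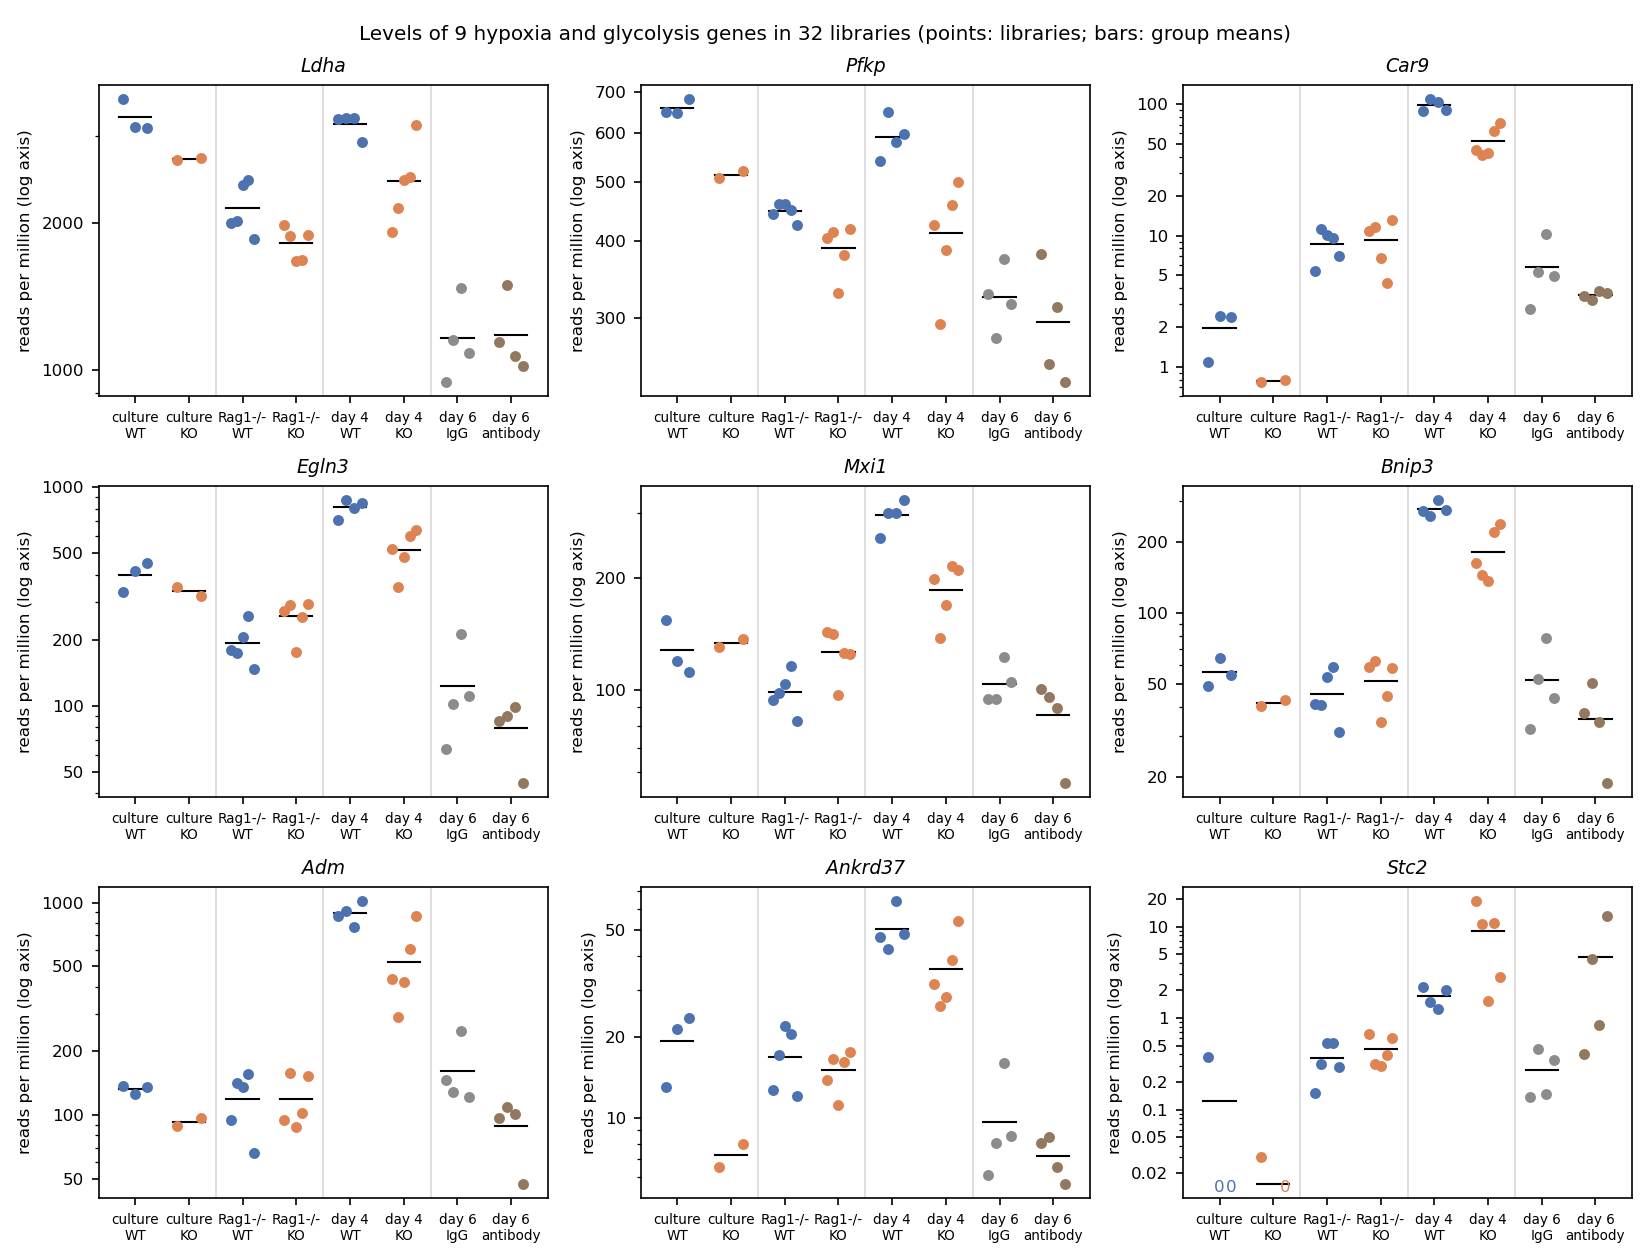
Level of 9 of the genes in RPM (log axis) in each of the 32 libraries (points) of 8 groups, with group means as bars; libraries at 0 are marked 0. Car9, Bnip3 and Adm stood highest in the day 4 WT tumours, and the Ldha axis shows the smaller span of a glycolytic enzyme.

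In cultured cells the comparison asks how the KO derivatives differ from WT cells without a host. Loss of Ddr1 and any other difference between the derivatives and the WT cells cannot be told apart. None of the 33 members tested passed limma's test across all genes (11911 genes, Benjamini-Hochberg adjusted p under 0.05, where 37 genes or 0.311% fell and 0.0168% rose). The estimates nevertheless lay mostly below 0, with 24 members lower and 9 higher in KO cells and a median log2 difference of −0.21, against 0.00 over all genes. At an unadjusted p under 0.05, 14 members were lower (9.62% of genes) and 1 was higher (9.21%). In 15 members both KO libraries were below all 3 WT libraries (17.7% of genes), and in 2 both were above (18.5%). DESeq2 on recovered reads called 9 members, 8 lower and 1 higher (4.89% and 3.97% of genes), and edgeR called 0 (0.201% and 0.0084%).

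The lowest p-values belonged to stress and secreted factors and a regulator of glycolysis. Ddit4, an inhibitor of mTORC1 that responds to low oxygen, had normalized counts of 5919, 5942 and 7104 in WT and 4214 and 3161 in KO cells. The KO libraries were the lower ones without overlap, at a log2 difference of −0.79 (SE 0.15, limma adjusted p = 0.0686). Pfkfb3, which makes the activator fructose 2,6-bisphosphate, was at 4480, 5277 and 4659 in WT and 3175 and 3412 in KO cells. Its difference was −0.54 (SE 0.10, limma adjusted p = 0.0686), again with both KO libraries lowest. Adm was at 4698, 4276 and 4551 in WT and 3039 and 3380 in KO cells. Ndrg1, a stress-response gene, was at 14868, 16220 and 15613 in WT and 10878 and 11944 in KO cells. Both genes had a limma adjusted p of 0.0686, at differences of −0.49 (SE 0.10) and −0.45 (SE 0.09). Ankrd37, an ankyrin repeat gene known as a direct HIF target, had the largest difference of the set at −1.34 (SE 0.27, limma adjusted p = 0.0692). Its counts were 448, 733 and 792 in WT and 224 and 281 in KO cells, with WT 1 well below the other WT libraries. Ankrd37 overlaps Ufsp2 and Lrp2bp on the opposite strand, and whether counting used strand is not given in the sources used here.

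By role, all 4 tested members of the secreted and stress group (Vegfa, Adm, Ndrg1 and Ddit4) lay below 0 in culture, with a median of −0.47. All 4 genes of the mitochondrial switch (Pdk1, Bnip3, Bnip3l and Ak4) did so too, with a median of −0.28. Of 7 oxygen sensing and transcription genes (Hif1a, Egln1, Egln3, Kdm3a, Ankrd37, Bhlhe40 and Mxi1) 6 lay below 0. The glycolytic enzymes were split, with 5 of 8 below 0 in the upper part of the pathway and 3 of 5 in the lower part. Slc16a3 (MCT4), the lactate exporter, lay the other way, at 21809, 15445.5 and 17965 in WT and 29983 and 25153 in KO cells (log2 difference 0.59, SE 0.16, limma adjusted p = 0.114). Leaving out WT 1 gave 9 called members, 8 lower (Ddit4, Ankrd37, Pfkfb3, Adm, Ndrg1, Pdk1, Pfkp and Car9) and Slc16a3 higher, among 4.16% and 5.25% of genes. The authors' deposited table has 4 members at an adjusted p under 0.05 (Pfkfb3, Slc16a3, Ankrd37 and Ddit4), where 3.67% of its genes do.

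In tumours of Rag1-/- hosts the comparison asks the same of tumours without mature lymphocytes. Only 2 of the 34 members tested passed, and both fell: Pfkp, the platelet phosphofructokinase that commits sugar to glycolysis, and Ldha. That is below the share of all genes, of which 11.4% fell and 11.3% rose with limma. The median of the members was −0.02, against −0.00 for 12795 genes, with 20 members below 0 and 14 above. At an unadjusted p under 0.05, 4 members were lower (18.2% of genes) and 6 higher (17.8%). In 1 member, Pfkp, every KO tumour was below every WT tumour (7.14% of genes), and in 0 every KO tumour was above (7.85%).

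Pfkp was at 9463, 9869.5, 9926, 9821 and 8929 normalized counts in WT and 8550, 8688, 6796, 7997 and 8778 in KO tumours. Every KO tumour was below every WT tumour, a log2 difference of −0.24 (SE 0.07, adjusted p = 0.0190 with limma). Pfkp overlaps Pitrm1 on the opposite strand. Ldha was at 42694, 43125, 51502, 53256 and 38897 in WT and 41639, 39433, 34370, 35207 and 39553 in KO tumours. WT 5 lay inside the KO range, and the difference was −0.26 (SE 0.09, limma adjusted p = 0.0424). Cell type markers also differed between these groups. The 5 mammary carcinoma markers tested lay below 0 for 3 (1 rose and 1 fell), and the 7 summed to 4800 to 6212 RPM in WT and 4237 to 5380 in KO tumours. Epcam was at 0.305 to 0.577 RPM in WT and 1.94 to 2.36 in KO tumours, and was also higher in cultured KO than WT cells. Of 10 fibroblast markers 8 lay below 0 (median −0.37, 1 rose and 1 fell), with sums of 949 to 1673 and 841 to 1360 RPM. Of 6 tested adipocyte markers 5 lay below 0 (median −1.72, 1 fell), with sums of 21.1 to 84.5 and 18.3 to 131 RPM. All 3 tested red blood cell markers lay above 0 (median 1.25, 1 rose, Hba-a1 and Hba-a2 at 0). Cultured cells also held reads of these lists. Their fibroblast sums were 99.3 to 156 RPM in WT and 361 to 837 in KO cells. Their adipocyte sums were 15.6 to 55.0 and 15.7 to 22.0 RPM, so the tumour sums cannot be read as host cells alone. The part of these cell types in the Pfkp and Ldha values was not tested. In culture, without a host, both KO libraries were also below all WT libraries for these genes. Pfkp was at 22051 to 23000 normalized counts in WT and 17374 and 18209 in KO cells. Ldha was at 105305 to 122769 in WT and 91914 and 94769 in KO cells. Neither passed there with limma. The Rag1-/- minus culture KO difference was 0.10 (SE 0.11) for Pfkp and −0.01 (SE 0.15) for Ldha. In the authors' deposited table for Rag1-/- hosts, Pfkp was the only member of the set under 0.05, where 11.2% of genes were.

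By role, 8 of 9 upper glycolysis genes lay below 0 in KO tumours of Rag1-/- hosts, with a median of −0.11, and all 3 genes of lactate export and pH (Slc16a3, Car9 and Car12) lay above 0. The next members by p lay in both directions and did not pass. Mxi1, a repressor that opposes MYC, was at 2008, 2107, 2243, 2525 and 1732 in WT and 3026, 2961, 1999, 2644 and 2610 in KO tumours (log2 difference 0.31, SE 0.11, limma adjusted p = 0.0567). All KO tumours but KO 3 were above all WT tumours. Ddit4 was at 2740, 4143, 5083, 4043 and 2846 in WT and 2681, 3359, 1723, 2647 and 2821 in KO tumours, a difference of −0.50 (SE 0.18, limma adjusted p = 0.0590). Its groups overlapped through WT 1 and WT 5. Eno2, the neuronal enolase, was at 197, 142, 175, 243 and 140 in WT and 260, 274, 179, 229 and 246 in KO tumours (log2 difference 0.42, SE 0.16, limma adjusted p = 0.0678). KO 3 had the lowest level of 15 of the 34 members in this table, and WT 4 the highest of 11. Without KO 3, limma called Bnip3l, Egln3, Eno2 and Mxi1 higher and Pfkp lower. Without WT 4 it called Egln3, Eno2, Mxi1 and Slc16a3 higher and Pfkp lower. The call of Ldha held only without KO 1, where Car12 was also called higher, and without WT 5, where Ddit4 was also called lower, and was lost without any other library. Ddit4 was also called lower without WT 1 and without KO 2, and Pfkp was called without each library. Leaving out 1 library at a time called 1972 to 3093 of the 12795 genes, in either direction. With all libraries 11.3% of genes rose and 11.4% fell, so the member calls in these runs are not read as a shift of the set.

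At day 4 in C57BL/6 hosts the set lay lower in KO tumours almost throughout, but no member passed across 14105 genes. Of the 36 members 33 were below 0 and 3 above, with a median log2 difference of −0.57, against 0.00 over all genes. With limma 0 members were called, where 0.0284% of genes fell and 0.00709% rose. At an unadjusted p under 0.05, 27 members were lower (8.33% of genes) and 2 higher (6.67%). In 13 members every KO tumour was below every WT tumour, which was so for 3.85% of genes, and in 0 above (1.91%). DESeq2 on recovered reads called 13 members lower (2.67% of genes) and Stc2 higher (2.28%), and edgeR called 0 (0.0213% and 0.00709%). The authors' deposited table has 13 members under 0.05 in either direction, against 4.72% of its genes. Stc2, higher in KO tumours, is among these, and Slc2a1 is not.

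Car9 had the smallest p, with 2068, 2643, 2541 and 2117 normalized counts in WT and 963, 912, 1003, 1428 and 1710 in KO tumours. The KO tumours were all lower, at a log2 difference of −1.0 (SE 0.20, limma adjusted p = 0.109). Mxi1 was at 6006, 7186, 7243 and 7609 in WT and 4288, 3045, 3965, 4966 and 4998 in KO tumours, without overlap (−0.74, SE 0.15, limma adjusted p = 0.117). The liver phosphofructokinase Pfkl was at 10834, 11727, 12574 and 11894 in WT and 6527, 6065, 7095, 7465 and 10538 in KO tumours. KO 5 came close to the lowest WT tumour for this gene, and the difference was −0.67 (SE 0.15, limma adjusted p = 0.141). Hexokinase Hk1, which traps glucose in the cell, was at 11712, 14781, 12241 and 14198 in WT and 8909, 5583, 7942, 8949.92 and 9806 in KO tumours. Ndrg1 was at 37496, 44668, 51207 and 49905 in WT and 27467, 18793, 22527, 32293 and 33219 in KO tumours. Neither gene overlapped between the groups, at −0.70 (SE 0.16) and −0.79 (SE 0.19), each with a limma adjusted p of 0.148.

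Every role shared this direction. The 2 glucose transporters lay at −0.83 (Slc2a1) and −0.09 (Slc2a3, the GLUT3 gene). Of 9 upper glycolysis genes 8 lay below 0, with a median of −0.46, and Pfkfb4 was the exception at 0.26 (SE 0.10). All 6 lower glycolysis genes lay below 0, from −0.13 for Eno2 to −0.61 for the mutase Pgam1. All 4 genes of the mitochondrial switch did, with a median of −0.59, and so did all 7 oxygen sensing and transcription genes, with a median of −0.65. In the secreted and stress group Vegfa, which recruits vessels, lay at −0.88 and Adm at −0.92. Stc2, a secreted glycoprotein, lay the other way. It was at 51.0, 36.1, 30.0 and 46.9 normalized counts in WT and 414, 233, 36.1, 248 and 66.6 in KO tumours (log2 difference 1.80, SE 0.65, limma adjusted p = 0.256). KO 3 lay inside the WT range for Stc2. The third member above 0 was Car12, another surface carbonic anhydrase, at 0.42 (SE 0.39).

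**Figure D2:**
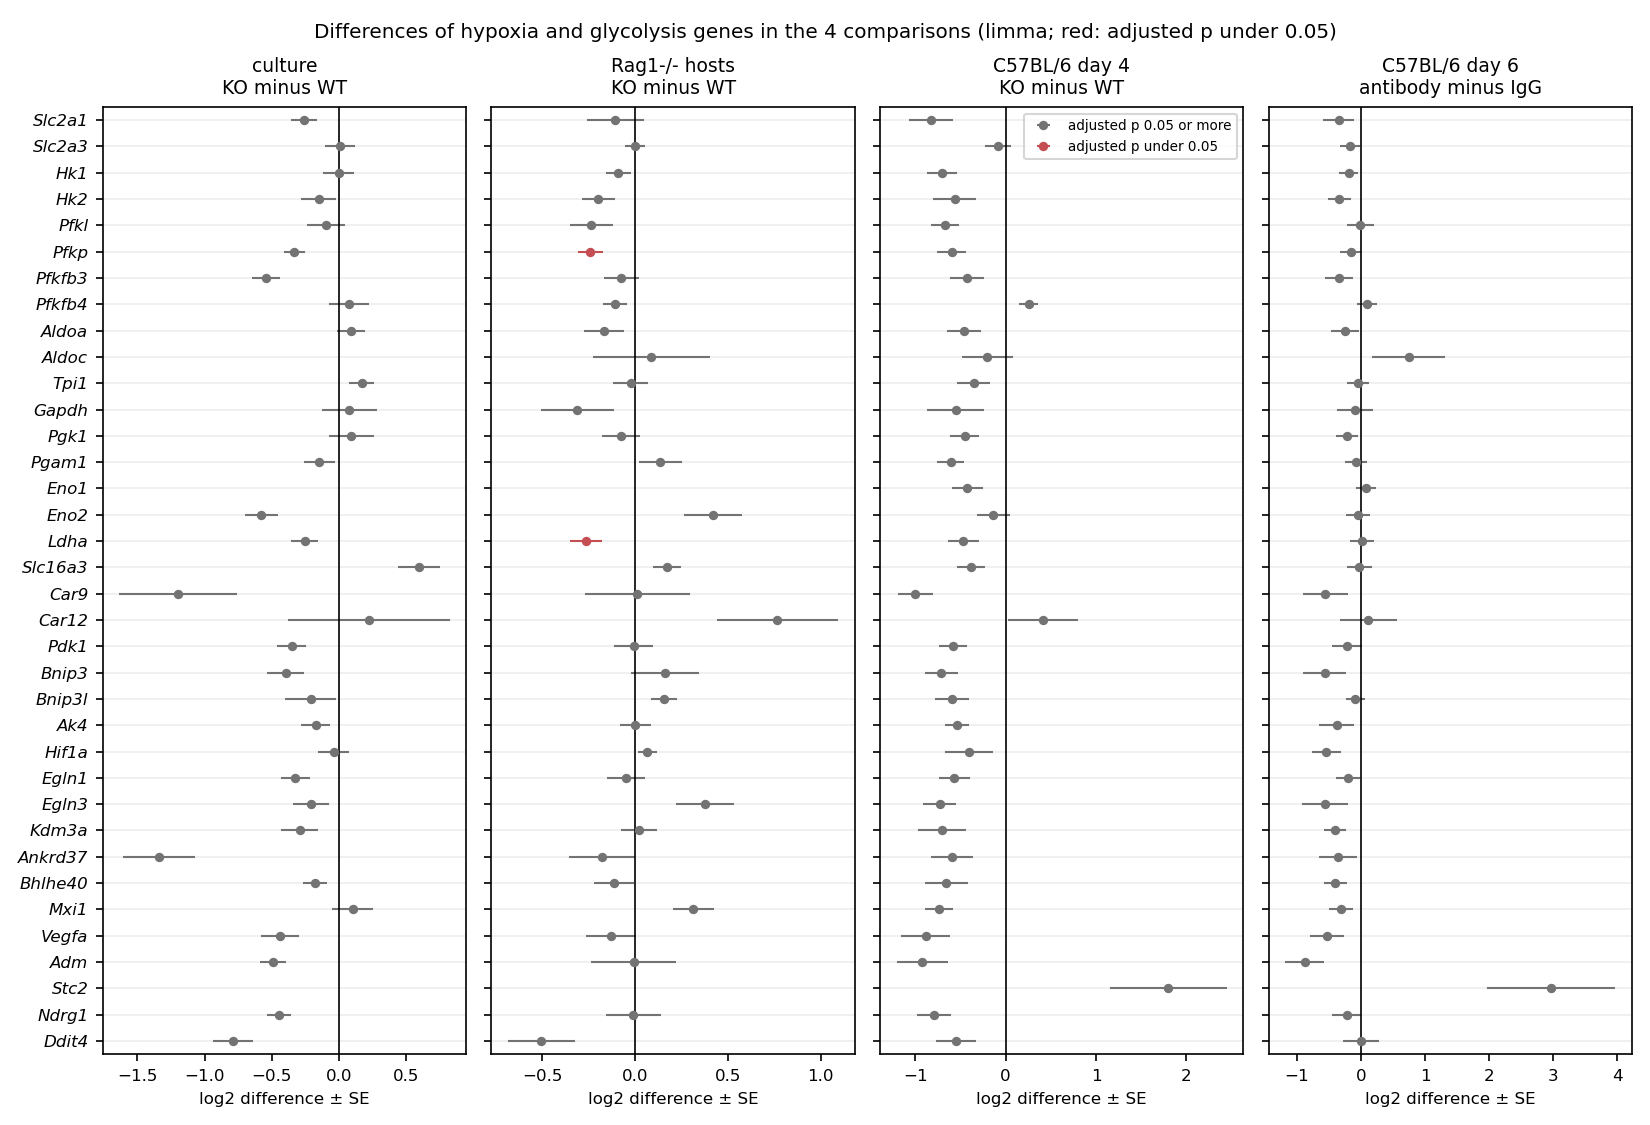
Log2 difference with its standard error (limma) for each of the genes tested in the 4 comparisons, in order of role, with red for an adjusted p under 0.05. Only Pfkp and Ldha in Rag1-/- hosts are red, while at day 4 33 of 36 genes lie left of 0; the horizontal scales differ between panels.

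The KO tumours of day 4 were not alike. Relative to the WT mean, the median member lay at −0.64, −1.03, −0.61, −0.40 and −0.13 in KO 1 to KO 5. KO 2 had the lowest level of 24 of the 36 members, and KO 5 had the lowest of 0. Without KO 5 the median difference was −0.66 and limma called Car9 and Pfkl lower (2 members, where 0.142% of genes fell), and without KO 2 it was −0.44 with 0 called. Aldoa was at 68263.5 in KO 5 and at 36390 to 44354 in the other KO tumours, and the 12 skeletal muscle markers, all detected, summed to 3515 RPM in KO 5 against 10.8 to 287 in the other KO and 12 to 1650 in the WT tumours. The part of muscle in the Aldoa value was not tested.

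Markers listed for other cell types also differed between these groups. Cultured cells held some reads of the fibroblast and adipocyte lists too, at the sums given above. The 8 keratinocyte markers summed to 0.946 to 2.52 RPM in WT (Dsg1a and Lor at 0) and 14.3 to 661 in KO tumours, and the 12 endothelial markers to 132 to 472 and 400 to 1325. The 8 adipocyte markers summed to 46.7 to 465 RPM in WT and 144 to 5622 in KO tumours, with the highest sum in KO 2. The 10 fibroblast markers summed to 3449 to 13089 and 4187 to 16957 RPM, and the 12 macrophage markers to 1786 to 4768 and 1684 to 4895. Of 6 red blood cell markers 2 were detected, with Hba-a1, Hba-a2, Hbb-bs and Hbb-bt at 0, and they summed to 2.35 to 6.54 RPM in WT and 12.9 to 81.0 in KO tumours. The mammary carcinoma markers, mostly Vim, summed to 6555 to 9092 RPM in WT and 5357 to 7141 in KO tumours, while Krt18 was at 0.215 to 0.993 RPM in WT and 1.68 to 47.6 in KO tumours. Their part in the lower hypoxia and glycolysis levels was not tested. Fibroblast sums in KO 1 to KO 5 were 16106, 12503, 4362, 16957 and 4187 RPM beside the median members given above, and in WT 1 to WT 4, whose median members lay at −0.12, 0.04, 0.00 and 0.11, they were 13089, 4588, 3449 and 4825. By gene, all 12 endothelial, all 8 adipocyte and all 5 tested keratinocyte markers lay above 0, with median log2 differences of 1.24, 3.56 and 3.01, and none of them passed with limma (9, 5 and 4 had an unadjusted p under 0.05).

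**Figure D3:**
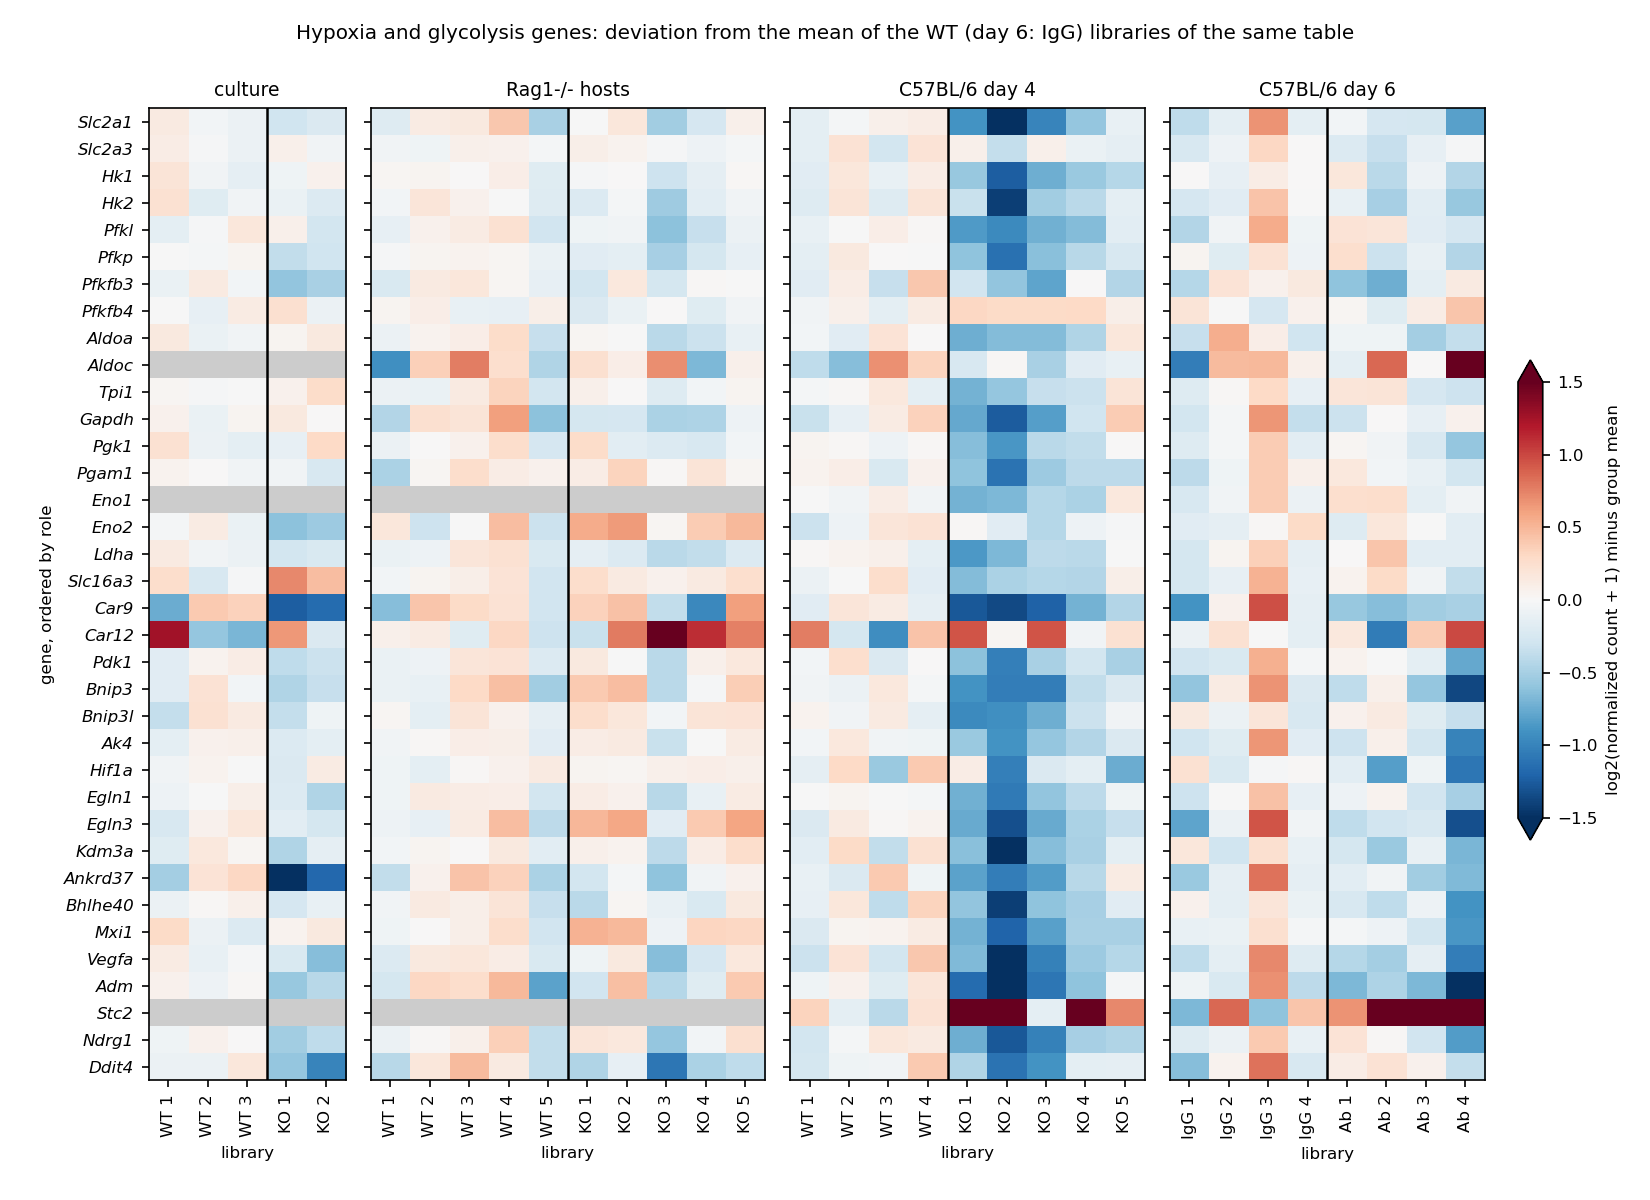
Deviation of each library's log2(normalized count + 1) from the mean of the WT (day 6: IgG) libraries of its own table, for 36 genes in order of role (red above, blue below, grey not tested, colour limits at 1.5). KO 2 at day 4 is the darkest blue column and KO 5 the palest KO column of that table; at day 6 IgG 3 is red for most genes.

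Whether the KO difference was the same in both hosts was tested directly for the 34 members in both tables. Of these, 33 had a lower KO difference at day 4 than in Rag1-/- hosts, with a median of −0.53 on the log2 scale, against −0.01 over 11247 genes. With limma 4 passed and all were lower at day 4, where 3.54% of genes were (0.720% were higher): Mxi1, Egln3, Bnip3l and Pgam1. At an unadjusted p under 0.05, 18 members were lower (12.9% of genes) and 1 higher (7.91%). edgeR called Mxi1 and Egln3 lower (2.97% of genes) and Pfkfb4 higher (1.24%). Host, time and table cannot be told apart in this comparison.

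Mxi1 differed by −1.05 (SE 0.20, limma adjusted p = 0.00581), from the counts given above for both hosts. Mxi1 overlaps Gm10197 on the opposite strand, and its level is uncertain through the near-identical copy named above. Egln3, the hydroxylase gene that HIF itself induces, was at 3862, 3764, 4458, 5652 and 3112 in WT and 5774, 6103, 3629.89, 5378 and 6159.57 in KO tumours of Rag1-/- hosts. At day 4 it was at 16568, 21069, 19483 and 19912 in WT and 11371, 7721, 11336, 13765 and 15145 in KO tumours. Thus 3 of 5 KO tumours were above all WT tumours in the one host and all 5 were below in the other, and the difference of the differences was −1.11 (SE 0.26, limma adjusted p = 0.0211). Bnip3l, a mitophagy receptor related to Bnip3, was at 2268, 2014, 2541, 2339.5 and 2033 in WT and 2667, 2502, 2176, 2544 and 2568 in KO tumours of Rag1-/- hosts. At day 4 its counts were 4829, 4503, 5131 and 4258 in WT and 2415, 2471, 2801, 3739 and 4512 in KO tumours, with KO 5 inside the WT range. The difference was −0.75 (SE 0.20, limma adjusted p = 0.0377). Pgam1, which moves the phosphate on phosphoglycerate, was at 339.6, 483, 567, 509.9 and 494 in WT and 508, 594, 479, 539.6 and 482 in KO tumours of Rag1-/- hosts, which overlap. At day 4 it was at 3469, 3569.75, 2857 and 3503 in WT and 2199.73, 1544, 2296, 2540.42 and 2537 in KO tumours, which do not (difference −0.74, SE 0.20, limma adjusted p = 0.0413). Hk1 came next at −0.61 (SE 0.18, limma adjusted p = 0.0528). Mxi1 and Egln3 passed in each alternative run for this comparison (a pseudocount of 5, a filter at a mean of 50, no trend, edgeR and each library left out), while Bnip3l and Pgam1 were both lost with edgeR and with limma without its trend. Both were also lost without any 1 of day 4 WT 1, WT 2, WT 4 and KO 2, or Rag1-/- WT 1, WT 2, WT 5, KO 1, KO 2, KO 4 and KO 5, and Bnip3l also without day 4 WT 3. Leaving out day 4 KO 5 raised the count to 9 lower and 1 higher (Pfkfb4), and leaving out Rag1-/- KO 3 raised it to 9 lower. Over the runs with 1 library left out, 283 to 718 of the 11247 genes were called, in either direction.

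**Figure D4:**
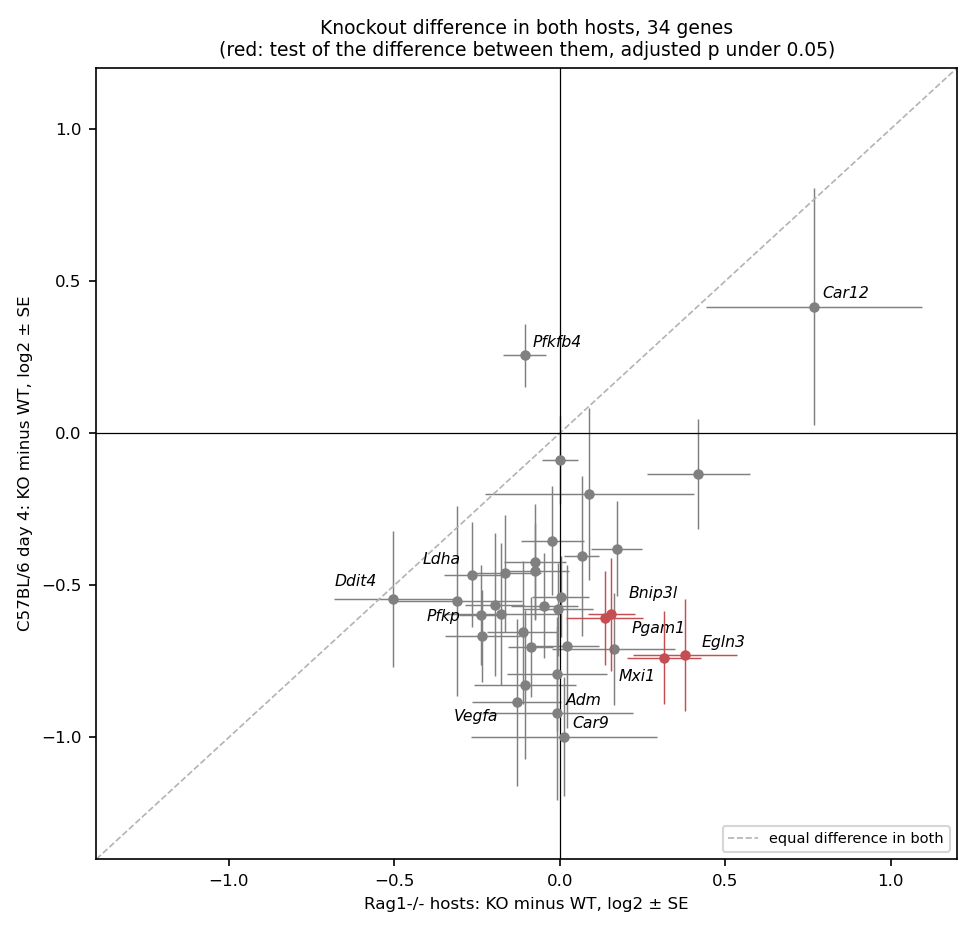
KO minus WT log2 difference with its standard error in Rag1-/- hosts (horizontal) and in C57BL/6 hosts at day 4 (vertical) for 34 genes; the dashed line marks equal differences and red the 4 genes that passed the test between hosts. The points lie below the dashed line except Pfkfb4, and most lie near 0 on the horizontal axis.

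Between culture and Rag1-/- hosts the KO difference of 33 members was higher in the tumours for 22, with a median of 0.21, against −0.00 over 11490 genes. With limma 1 passed, Eno2, at 1.00 (SE 0.25, adjusted p = 0.0374), where 2.20% of genes were higher and 2.36% lower. At an unadjusted p under 0.05, 5 members were higher (10.1% of genes) and 1 lower (10.6%), and edgeR also called Eno2 (2.31% of genes higher, 2.06% lower). In culture Eno2 was at 1001, 1112 and 955 normalized counts in WT and 666 and 699 in KO cells, while in tumours, with the counts given above, 3 of 5 KO libraries were above all WT libraries. Ankrd37 followed at 1.17 (SE 0.35, limma adjusted p = 0.0641). The Eno2 call was lost without the trend and without any 1 of culture WT 2, culture WT 3, both culture KO libraries, Rag1-/- WT 2 and WT 3, and Rag1-/- KO 1, KO 2, KO 4 and KO 5. Without culture WT 1 the calls were 4 higher (Ankrd37, Bnip3l, Car9 and Eno2) and Slc16a3 lower, and without Rag1-/- KO 3 they were Ankrd37 and Eno2. Over the runs with 1 library left out, 215 to 1555 of the 11490 genes were called, in either direction.

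At day 6 the comparison asks what the antibody changed in C57BL/6 tumours. No gene of 14155 passed with limma (0%), so no member did. Of the 36 members 29 lay below 0 under the antibody and 7 above, with a median of −0.21, against −0.01 over all genes. At an unadjusted p under 0.05, 4 members were lower (4.43% of genes) and 1 higher (4.18%). edgeR called 0, and DESeq2 called 1 member, Stc2, higher (0.562% of genes, with 0.619% lower), as did the authors' deposited table (0.995% of its genes in either direction).

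Stc2 was at 4.13, 13.9, 4.41 and 9.90 normalized counts under IgG and 12, 134, 23.9 and 388 under the antibody. Antibody 1 lay inside the IgG range and antibody 4 was highest, at a log2 difference of 2.97 (SE 1.00, limma adjusted p = 0.517). Stc2 had the widest range of any member within a tumour group here, 4.70 on the log2 RPM scale, followed by Aldoc at 2.35 and Car12 at 1.92 in the same group. Adm was at 4387, 3906, 7371 and 3507 under IgG and 2882, 3335, 2885 and 1416 under the antibody. It was the 1 member without overlap (1.87% of genes lay lower without overlap, and 2.03% higher), at −0.87 (SE 0.31, limma adjusted p = 0.517). The histone demethylase gene Kdm3a was at 3572, 2573, 3761 and 2953 under IgG and 2655, 2158, 2934 and 1976 under the antibody, which overlap. Hif1a was at 12272, 8972, 10399 and 10660.0 under IgG and 9386, 5929, 10035 and 4944 under the antibody. Bhlhe40, a repressor of the circadian and hypoxic response, was at 7079.83, 6096, 7643 and 6306 under IgG and 5707, 5198, 6417 and 3639 under the antibody. All 3 overlapped, at −0.40 (SE 0.17), −0.54 (SE 0.23) and −0.40 (SE 0.18), with a limma adjusted p of 0.517 each.

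By role, all 7 oxygen sensing and transcription genes lay below 0 at day 6, with a median of −0.40, and so did all 4 genes of the mitochondrial switch, with a median of −0.30. The 6 lower glycolysis genes were nearer 0, with a median of −0.06. IgG 3 and antibody 4 stood apart. IgG 3 had the highest level of 25 of the 36 members, and antibody 4 the lowest of 21. Without IgG 3 the median difference was −0.08 and without antibody 4 it was −0.12. The 12 macrophage markers summed to 13021 RPM in antibody 4, against 3182 to 6252 in the other antibody and 3554 to 7027 in the IgG tumours. The T cell markers, 7 of 7 in the table detected, summed to 395 RPM in antibody 4 against 25.6 to 96.6 in the other antibody and 19.8 to 170 in the IgG tumours. Across the groups, all 12 skeletal muscle markers lay lower under the antibody, with a median log2 difference of −4.75 and an unadjusted p under 0.05 for 12, and summed to 7.504 to 328 RPM against 206 to 8507 under IgG. All 8 adipocyte markers lay higher (median 3.55, 6 at an unadjusted p under 0.05, sums of 53.1 to 790 against 34.1 to 81.3 RPM). All 8 keratinocyte markers did too (median 2.77, 3 at that p, 2.52 to 207 against 1.14 to 2.81 RPM), as did all 7 mammary carcinoma markers (median 2.02, 4 at that p, 4874 to 6854 against 5189 to 6237 RPM). Of the latter, Vim (4440 to 6599 against 5006 to 6045 RPM) and Krt8 overlapped between the groups. Krt18 was at 1.79 to 93.3 against 0.103 to 1.18 RPM. Krt18 and the other epithelial markers were near 0 in the cultured carcinoma cells, so the share of carcinoma cannot be read from them. None of these markers passed with limma. The highest muscle sum, 8507 RPM, was in IgG 2, where Aldoa was at 53098, above the 25384 to 38760 of the other tumours. The part of these cell types in the member values was not tested.

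Other genes of the same pathways, from lists set beside the members, followed them in part. Of 42 further HIF pathway genes 31 were tested in culture, where 20 lay below 0 (median −0.09) and glycogen synthase Gys1 fell, by 0.75 (SE 0.09, limma adjusted p = 0.0306). Of the 41 tested at day 4, 32 lay below 0 in KO tumours, with a median of −0.27, 17 were lower and 3 higher at an unadjusted p under 0.05 (8.33% and 6.67% of all genes) and 0 passed. Of 25 genes of the tricarboxylic acid cycle and oxidative phosphorylation, the oxygen-using arm, 21 lay above 0 at day 4, with a median of 0.12, 4 were higher and 0 lower at an unadjusted p under 0.05 (against the same shares of all genes) and 0 passed. The 16 tested further glycolysis genes split evenly at day 4, with 8 below and 8 above 0 and a median of −0.05.

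In Rag1-/- hosts, where 11.3% of all genes rose and 11.4% fell with limma, 4 of 14 further glycolysis genes rose and 2 fell. Glucose phosphate isomerase Gpi1 fell by 0.44 (SE 0.10, adjusted p = 0.00586) and the lactate carrier Slc16a1 fell by 0.18 (SE 0.05, adjusted p = 0.0293). The muscle enolase Eno3 rose by 0.36 (SE 0.07), phosphoglucomutase Pgm1 by 0.30 (SE 0.06) and the kinase-phosphatase Pfkfb2 by 0.34 (SE 0.10). Of 38 further HIF pathway genes 3 rose and 2 fell, and of 25 oxidative genes 1 rose and 1 fell, which for both lists is below those shares. The iron carrier gene Trf rose by 1.53 (SE 0.16), from 303 ± 36.2 to 901 ± 235 normalized counts (SD, n = 5 each, limma adjusted p = 4.66e-05). The hydroxylase gene Egln2 fell by 0.38 (SE 0.08) and Gys1 fell by 0.40 (SE 0.11). Ldha, called lower in these tumours, lies on chromosome 7 (chr7:46841475-46855627). Whether Ldha, Gpi1, Egln2 and Gys1 share a chromosome region that is lower in KO libraries was not tested. The branching enzyme Gbe1 rose by 0.52 (SE 0.13) and the collagen lysyl hydroxylase Plod2 by 0.26 (SE 0.08). Of the oxidative genes Ndufs1 rose by 0.17 (SE 0.05) and Cox6c fell by 0.17 (SE 0.06). At day 4 and at day 6 no gene of these lists passed with limma.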

How the data were processed

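RNA from 32 E0771 libraries was measured by RNA sequencing, from 500 ng of Trizol-extracted RNA with a TruSeq stranded mRNA kit, per the labels' protocols. The submitters' processing notes name CASAVA, TopHat, DESeq2 and mm10, with no versions, roles or order. The values deposited by the authors are a signal per gene and library, read counts divided by a size factor of each library, in 4 tables. In every library all values were whole multiples of 1 step (tolerance 0.01), which gave back whole reads, 18967300 to 39732635 per library. The authors also deposited adjusted p-values, quoted as theirs, made by a method that the sources used here do not give for each table. A further 22 columns that matched no sample were not used.

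Groups came from the labels. Main tests used limma 3.58.1 (trend) on log2(normalized count + 1), so fold changes of low genes are understated, for genes with a mean of 10 or more in a table, with Benjamini-Hochberg adjustment over all genes tested and a threshold of 0.05. The difference of KO effects between 2 tables was tested in the same way on both tables together. Alternatives were pseudocounts of 0.5 and 5, no filter, a mean of 50, quantile normalization, no trend, edgeR 4.0.16 and DESeq2 1.42.0 on the recovered reads, a replicate block and each library left out. RPM, used for levels across tables, is recovered reads per 1000000 reads of a library. Scripts were tested on simulated data (R 4.3.3, Python 3.11.15). Replicate numbers did not pair the libraries. Positions and copies came from GENCODE on GRCm38, promoters from RefSeq.

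The members and lists were chosen with earlier results of these data known. Values in every library are given for members past the threshold or, where fewer than 5 passed, the 5 of smallest p, besides the 3 of widest range within a group and the 5 highest per length. Of the other pathway lists, genes past the threshold are named, up to 5 per list and comparison. Aldoa, Pfkfb4, Slc16a3 and the genes named for their levels across groups were chosen after their values were seen.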

Additional observations from a re-analysis of the deposited data

Results flagged for a closer look

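The KO difference of 4 genes was not the same at day 4 in C57BL/6 hosts as in Rag1-/- hosts, by limma's test of the difference itself. The day 4 minus Rag1-/- value was −1.11 for Egln3, −1.05 for Mxi1, −0.75 for Bnip3l and −0.74 for Pgam1 on the log2 scale. Between Rag1-/- hosts and culture the KO difference of Eno2 was not the same by that test, with a tumour minus culture value of 1.00. The calls of Bnip3l and Pgam1 were lost with edgeR and without the trend, and that of Eno2 was lost without the trend. Each of these calls was also lost without any of several single libraries. Host, day and table cannot be told apart in the first comparison, nor growth condition and table in the other. The 5 leading genes of each tumour comparison were also checked in both groups for a highest or lowest library whose gap to the nearest one, divided by the range, passed Dixon's 95% critical value. Of the 30 sets of 4 or 5 values 0 had one, the Stc2 values under the antibody at day 6 included. With so few values only a gap filling most of the range could pass, so this does not show that the libraries were alike.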

How the results depend on the processing

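In culture the count of all genes called was 39, 12 without the trend, 25 with edgeR and 1055 with DESeq2, which called 8 members lower and 1 higher. The culture median was −0.19 without a filter, −0.22 with quantile normalization, −0.22 with edgeR and −0.22 with DESeq2. In Rag1-/- hosts quantile normalization and DESeq2 each called 2 members higher, and 1 member was called lower without a filter, with quantile normalization and without the trend. At day 4 genes called were 5, 9 without a filter and 689 with DESeq2, which called 13 members lower and 1 higher. At day 6 DESeq2 called 166 genes and 1 member higher. For day 4 minus Rag1-/-, 2 members were lower without the trend and with edgeR, which called 1 higher, and for Rag1-/- minus culture 0 were higher without the trend. The cause of these changes was not tested. Leaving out 1 library at a time gave 2 to 1120 genes, medians of −0.23 to −0.17, 0 to 1 member higher and 0 to 8 lower in culture; 1972 to 3093, −0.10 to 0.02, 0 to 4 and 1 to 3 in Rag1-/- hosts; 3 to 48, −0.66 to −0.44, 0 and 0 to 2 at day 4; and 0 to 5, −0.29 to −0.08, 0 and 0 at day 6. It gave 283 to 718, −0.60 to −0.38, 0 to 1 and 2 to 9 for day 4 minus Rag1-/-, and 215 to 1555, 0.13 to 0.31, 0 to 4 and 0 to 1 for Rag1-/- minus culture. The Rag1-/- median, near 0, changed sign without 3 of the 10 libraries taken singly (KO 3, WT 3 or WT 4), and no named gene changed direction in any alternative fit. With the replicate block, Rag1-/- hosts had 2411 genes called and 1 member lower, Pfkp, day 4 had 1 gene, 0 members and a median of −0.66, and day 6 had 0. Same-numbered libraries correlated between −0.204 and 0.446 in their deviations, and matched their own number best for 1 of 5 numbers in Rag1-/- hosts, 0 of 4 at day 4 and 2 of 4 at day 6. For culture alone no paired analysis was possible, since its labels carry no replicate numbers.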
